A study of Mus musculus with 12 samples.

Results

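The tetraspanins are a family of small proteins that cross the cell membrane 4 times and gather integrins, proteases and receptors into patches of the cell surface. Members were taken by gene symbol: every probe set paired with 1 symbol that starts with Tspan and a digit, apart from Tspan3, or that is Cd9, Cd37, Cd53, Cd63, Cd81, Cd82, Cd151, Upk1a, Upk1b, Prph2 or Rom1. This gave 28 genes with 62 probe sets, of 18193 genes with such a probe set. Cd63 had no probe set in the annotation used and was not analysed here. Each of 12 samples was hybridised to its own Affymetrix mouse array, and the 4 groups held 3 samples each, which the labels call biological replicates. The groups were bcCML (a blast crisis chronic myeloid leukaemia made with BCR-ABL and NUP98-HOXA9) from Msi2 mutant donors, bcCML from wild-type donors, AML (acute myeloid leukaemia made with MLL-AF9) from Msi2 mutant donors and AML from wild-type donors. Msi2 encodes an RNA-binding protein, and the mutants were Msi2 Gt/Gt, homozygous for a gene trap. The strain is given for all samples as B6;CB-Msi2Gt(pU-21T)2Imeg.

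In each case stem and progenitor (KLS) cells of the donor were infected with the leukaemia drivers and transplanted, no treatment followed, and leukaemic stem cells were sorted from the established disease. AML cells were sorted as Lin- Sca1- ckit+ and bcCML cells as Lin-, so that driver, disease and sort cannot be told apart between the leukaemias. The question of the series was the Msi2 mutant against the wild-type in each leukaemia, and the title names Tspan3, which lies outside the members described here. A bulk array reads the sorted cells together, so fewer cells of a type and less RNA per cell cannot be told apart.

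As background, the tetraspanins of blood cells fall into several kinds. Cd37 and Cd53 are found mainly on leukocytes, Cd81 belongs to the co-receptor of B cells, Cd9 and Cd151 bind integrins, and Cd82 is known as a metastasis suppressor. Tspan5, Tspan10, Tspan14, Tspan15, Tspan17 and Tspan33 form the TspanC8 group, which binds the protease Adam10 and carries it to the cell surface, where it cuts Notch receptors and other proteins. The uroplakins Upk1a and Upk1b line the urinary tract, and Prph2 and Rom1 shape the discs of photoreceptors.

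Values are normalised intensities on a linear scale as the authors deposited them, with a floor of about 4.5 units. Array medians lay between 13.06 and 13.79, correlations between replicates between 0.938 and 0.981, and array number limits the precision. A probe set was tested where it passed 16 units on at least 3 arrays, and the probe set with the highest mean stands for its gene, which left 10817 genes. Msi2 itself checked the labels. Its intensities were 487, 721 and 608 on the Msi2 mutant bcCML arrays, against 2583, 4319 and 4579 in wild-type bcCML, a log2 difference of -2.63 ± 0.34 (SE; limma, adjusted p = 0.02). In AML they were 52.9, 69.1 and 86.9 on the mutant arrays, against 325, 181 and 430.3 on the wild-type arrays, a log2 difference of -2.11 ± 0.34 (adjusted p = 0.0211). Tspan3 averaged 19.3 ± 11.7 in mutant AML and 80.5 ± 26 in wild-type AML (SD, n = 3 each; adjusted p = 0.0445). In bcCML it averaged 183 ± 38.3 in the mutant and 274 ± 32.8 in the wild-type. Those arrays did not overlap, but Tspan3 did not pass the threshold there (limma, adjusted p = 0.792). A marker is counted in a group where its mean log2 there was above the filter level. All 7 progenitor markers were so counted in every group. Of 8 neutrophil markers, 8 were counted in each AML group and 7 in each bcCML group.

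Of the 28 tetraspanin genes, 18 passed the filter. They were all 7 members of the leukocyte group (Cd9, Cd37, Cd53, Cd81, Cd82, Cd151 and the haematopoietic Tspan32), 4 of the 6 TspanC8 genes (Tspan5, Tspan14, Tspan17 and Tspan33), Rom1 alone among the 4 uroplakin and photoreceptor genes, and 6 of 11 others (Tspan2, Tspan4, Tspan6, Tspan8, Tspan13 and Tspan31). The other 10 genes, with 20 probe sets, were Prph2, Tspan1, Tspan9, Tspan10, Tspan11, Tspan12, Tspan15, Tspan18, Upk1a and Upk1b. None of these 10 passed 16 units on any array except Tspan9, which reached 18.88 on 1 wild-type AML array, and the highest value of the other 9 was 7.26. Several members had a bright probe set in every group. Cd53 ran between 5577 and 18182 units over the 12 arrays, Cd81 between 7256 and 10549 units, and Tspan31, a gene known from amplified regions of sarcomas, between 3356 and 5995 units. Rom1, Tspan33 and Tspan6 passed the filter through bcCML arrays alone and Tspan17 through AML arrays alone, so a difference of these 4 between the leukaemias was in part a condition of their being tested.

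**Figure D1:**
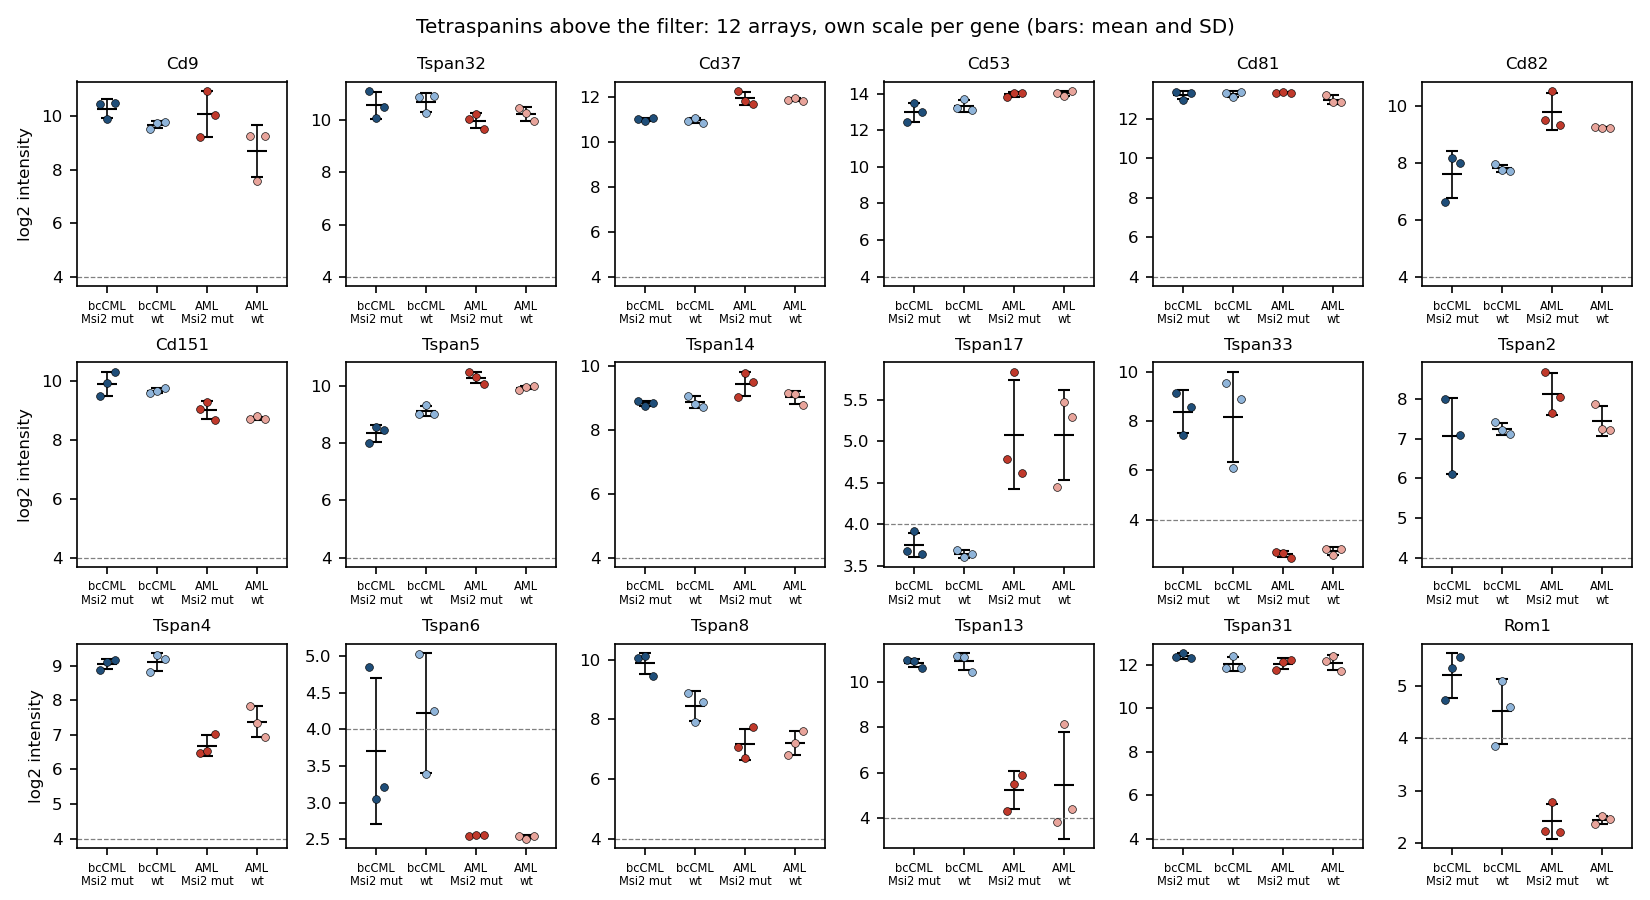
Log2 intensity of each tested tetraspanin (its probe set with the highest mean) on every array, in the order Msi2 mutant bcCML, wild-type bcCML, Msi2 mutant AML and wild-type AML. Points are arrays, bars give the mean and SD (n = 3), and the dashed line is the filter level at log2 of 4. Tspan13 and Tspan33 stand far apart between the leukaemias, and Cd81 and Tspan31 lie close together in all 4 groups.

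The Msi2 mutant was compared with the wild-type in bcCML. Tspan8 was 2.68-fold brighter in mutant bcCML and Tspan5 was 1.72-fold dimmer, each with no overlap of arrays, but no tetraspanin passed the adjusted threshold of 0.05 (0 of 18, where 0.139% of all tested genes passed). At an unadjusted p under 0.05 there were 2 of 18 members (11.1%), where 8.32% of all genes lay. Groups without overlap were seen for 3 members (16.7%), where 15.9% of all genes showed it, so these shares lay near the background. The median log2 difference of the members was -0.04 (all genes -0.02).

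Tspan8, a tetraspanin known from carcinomas, had 1056, 1114 and 709 units in Msi2 mutant bcCML, against 473, 239.8 and 383 units in wild-type bcCML. All 3 mutant arrays lay above all 3 wild-type arrays, and the means were 959 ± 219 in the mutant and 365 ± 117 in the wild-type (SD, n = 3 each). The log2 difference was 1.42 ± 0.34 (SE; 95% interval 0.66 to 2.18, adjusted p = 0.253). In AML the same probe set had 133, 105 and 213 units in the mutant and 111, 148 and 196 units in the wild-type. The AML groups overlapped, with a log2 difference of -0.04 ± 0.34. The difference between both effects was 1.46 ± 0.48 on the log2 scale and did not pass the test (adjusted p = 0.373). Of 8 markers of T and NK cells, Gzma and Gzmb passed 16 units on a bcCML array, Gzma on 1 array of each genotype. The summed levels of the 8 were 3390.2 to 6454 units in the mutant and 1115 to 2422 units in the wild-type. Most of that was the granzyme Gzmb, with 5510.1, 5443 and 3344 units in mutant bcCML, against 1944, 985 and 2384 units in wild-type bcCML, while Cd3g and Ncr1 were at the floor on all 12 arrays. Their part in the Tspan8 values was not tested.

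Tspan8 had 5 probe sets above the filter, which are paired with the same gene and are no replicates of each other. Another of them, 1424649_a_at, had 1276, 1853 and 1014 units in mutant bcCML, against 431, 164 and 344 units in wild-type bcCML. Its log2 difference was 2.21 ± 0.46, with an adjusted p of 0.186 over all probe sets. In AML it had 4.87, 5.75 and 5.76 units in the mutant and 5.75, 16.7 and 5.75 units in the wild-type, close to the floor on all arrays but 1. In bcCML 4 of the 5 probe sets were higher in every mutant array than in any wild-type array. The exception was 1455709_at, at 46.5 ± 7.6 units in mutant and 49.8 ± 11.2 units in wild-type bcCML (log2 difference -0.09 ± 0.37).

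Tspan5, a TspanC8 member, differed the other way in bcCML. It had 256, 373 and 355 units in mutant bcCML, against 514, 642 and 519 units in wild-type bcCML. Every mutant array lay below every wild-type array, with a log2 difference of -0.78 ± 0.18 (95% interval -1.17 to -0.38, adjusted p = 0.208). In AML it had 1419, 1279 and 1076 units in the mutant and 932, 1003 and 1013 units in the wild-type. There every mutant array lay above every wild-type array, with a log2 difference of 0.35 ± 0.18 (adjusted p = 0.425). The Msi2 effect in bcCML minus that in AML was -1.13 ± 0.25 (95% interval -1.69 to -0.57, adjusted p = 0.160), and 0 of 18 members passed this test, as did 0% of all genes. At an unadjusted p under 0.05 it held 2 members, Tspan5 and Tspan8, against 9.37% of all genes. Opposite Msi2 effects without overlap in either leukaemia were found in 0.814% of all genes and, among the members, in Tspan5. The other probe set, 1431530_a_at, had 14.9, 28.5 and 50.1 units in mutant bcCML and 104, 53.9 and 63.4 units in wild-type bcCML. That is the same order of the groups, with a log2 difference of -1.35 ± 0.41 (adjusted p = 0.444 over all probe sets). In AML it had 375, 218 and 236 units in the mutant and 235, 205 and 174 units in the wild-type. Those groups overlapped (0.40 ± 0.41), so opposite effects without overlap were not seen in this probe set.

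**Figure D2:**
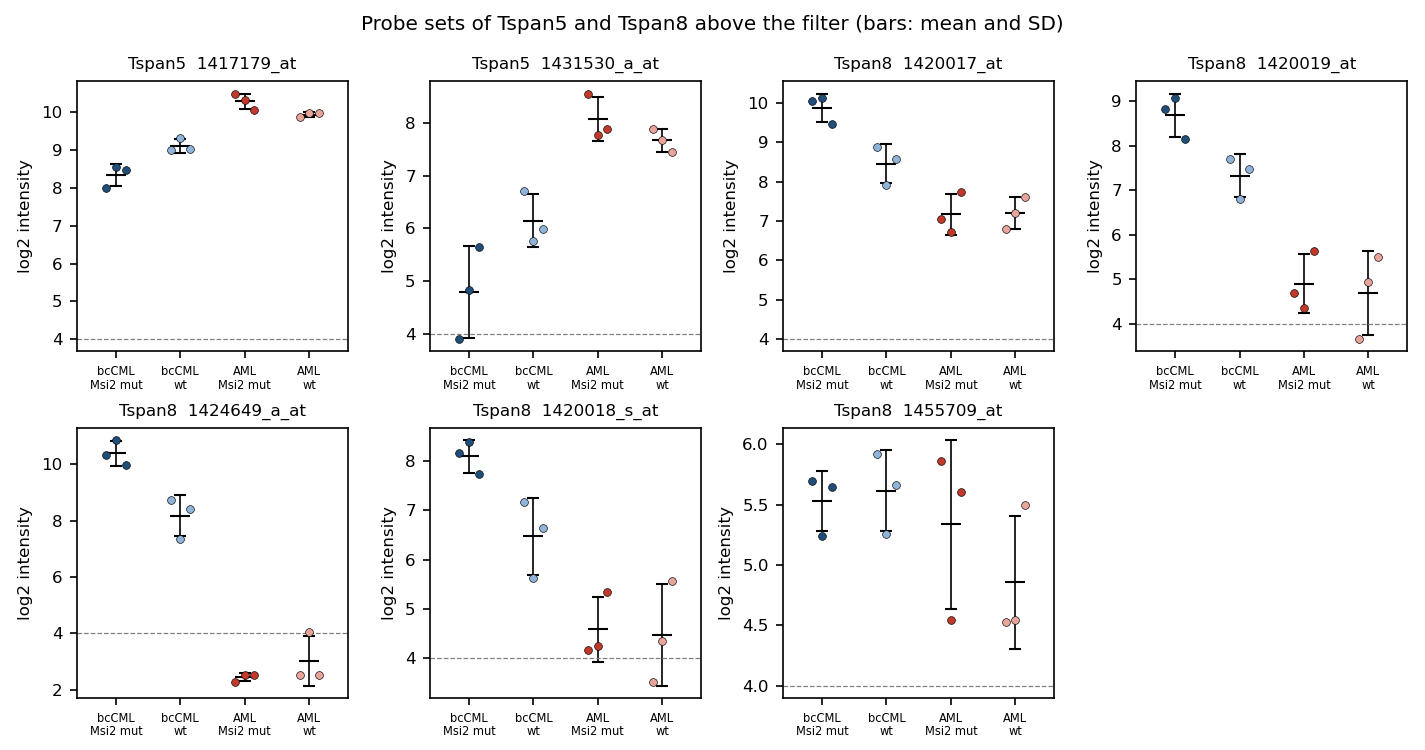
Intensity on a log2 axis of the probe sets of Tspan5 and Tspan8 above the filter, by array, with the groups in the order Msi2 mutant bcCML, wild-type bcCML, Msi2 mutant AML and wild-type AML. Points are arrays and bars are the mean and SD (n = 3). Both Tspan5 probe sets are lower in mutant than in wild-type bcCML, 4 Tspan8 probe sets are higher there, and 1455709_at of Tspan8 is level.

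The start regions of Tspan8 and Tspan5 are shown because these members had the smallest p of the family in bcCML and their arrays differed in opposite directions. The sequences run from 250 bases before to 50 after the start in RefSeq, build GRCm38.p6, 5′ to 3′ on the strand of the gene, and capitals mark CG dinucleotides. Tspan8 lies at chr10:115817034-115817333 on the plus strand and Tspan5 at chr3:138741958-138742257 on the plus strand.
Tspan8: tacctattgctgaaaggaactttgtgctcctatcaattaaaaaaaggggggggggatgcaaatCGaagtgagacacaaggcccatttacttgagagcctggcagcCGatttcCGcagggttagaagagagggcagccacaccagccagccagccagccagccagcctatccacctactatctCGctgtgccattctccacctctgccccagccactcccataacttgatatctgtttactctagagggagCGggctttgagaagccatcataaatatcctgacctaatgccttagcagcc
Tspan5: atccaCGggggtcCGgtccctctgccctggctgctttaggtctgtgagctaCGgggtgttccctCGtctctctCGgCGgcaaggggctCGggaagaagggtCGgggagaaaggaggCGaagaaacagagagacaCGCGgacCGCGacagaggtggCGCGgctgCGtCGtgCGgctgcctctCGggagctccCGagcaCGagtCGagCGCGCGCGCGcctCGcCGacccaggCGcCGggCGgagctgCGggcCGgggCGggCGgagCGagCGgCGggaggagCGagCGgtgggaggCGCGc
The Tspan8 window held 5 CG dinucleotides at 51.7% G and C, and the Tspan5 window held 43 at 73.3%, where the median of all 32851 RefSeq start regions was 7. Both strands were searched for short motifs of blood transcription factors. The GATA motif AGATAA occurred in 11.2% of all start regions, the ETS motif AGGAAG in 35.4% and the KLF motif CCACACCC in 3.56%, and none of them was in either window.

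Other members of bcCML with small p were Rom1 and Tspan31. Rom1, a partner of Prph2 in photoreceptor discs, had 26.4, 40.4 and 47.0 units in mutant bcCML, against 14.6, 34.2 and 24.1 units in wild-type bcCML. The groups overlapped, with a log2 difference of 0.69 ± 0.32 (adjusted p = 0.606). Tspan31 had 5269, 5995 and 5074 units in mutant bcCML, against 3639, 5384 and 3685 units in wild-type bcCML, also with overlap (0.38 ± 0.22, adjusted p = 0.697). Cd9, a partner of integrins on platelets and other cells, had 1422, 944 and 1450.2 units in mutant bcCML and 742, 852 and 878 units in wild-type bcCML. Its groups did not overlap, and the log2 difference was 0.60 ± 0.50 (adjusted p = 0.811). The remaining 13 members had log2 differences between -0.52 (Tspan6) and 0.23 (Cd151). Cd37 was among the most tightly measured, with a log2 difference of 0.05 (95% interval -0.30 to 0.40).

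In AML, too, the Msi2 mutant left no tetraspanin past the threshold (0 of 18, where 1.52% of all tested genes passed). At an unadjusted p under 0.05 there were 3 members, Tspan4, Cd9 and Cd81 (16.7%, where 14.2% of all genes lay). Groups without overlap were seen for Cd81, Cd82 and Tspan5, all higher in the mutant (16.7% of the members, where 16.7% of all genes showed it). The median log2 difference of the members was 0.01 (all genes -0.05).

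Cd9 had 604, 1985 and 1049.6 units in mutant AML, against 617, 193 and 612 units in wild-type AML. Its log2 difference was 1.37 ± 0.50 (95% interval 0.27 to 2.48, adjusted p = 0.236), and the lowest mutant array lay below the 2 higher wild-type arrays. It rested on 1 high mutant array and 1 low wild-type array, and was 0.93 without mutant AML array 2 and 0.81 without wild-type AML array 2. Tspan4, known from migrasomes, had 88.9, 93.0 and 130.3 units in mutant AML, against 228, 163 and 123 units in wild-type AML. The groups overlapped by 1 array on each side (-0.69 ± 0.24, adjusted p = 0.223). Cd81 had 10209, 10243 and 10045 units in mutant AML, against 9422, 7256 and 7385 units in wild-type AML. These groups did not overlap, and the difference was small (0.35 ± 0.16, adjusted p = 0.341). Tspan14 of the TspanC8 group had 524, 891 and 725 units in mutant AML, against 569, 556 and 447 units in wild-type AML (0.42 ± 0.20, adjusted p = 0.387). Cd82 had 744, 1502 and 656 units in mutant AML, against 616, 602 and 604 units in wild-type AML (0.57 ± 0.40, adjusted p = 0.602).

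Monocyte markers varied between the same arrays. Their summed level on mutant AML arrays 1 to 3 ran from 8915 to 33849 units, against 16680 to 28151 units on the wild-type arrays, with 10 of 11 markers counted in each group. The marker Csf1r had 1532, 10604 and 7242 units in mutant AML, against 3478, 4771 and 3798 units in wild-type AML. Cd9, Cd82 and Tspan14 were all highest on mutant array 2, which is also the highest for Csf1r. The markers Adgre1, Ccr2, Cd14, Clec4a3, Cx3cr1, Mpeg1 and Ms4a6c were highest there too. Exceptions were F13a1, highest on mutant array 1, and Ly86, highest on mutant array 3. Ly86 had 779, 1386 and 1429 units in mutant AML, against 3295, 3196 and 2843 units in wild-type AML. Fcgr1 was below 16 units on every AML array. The summed neutrophil markers were 149800.1 to 179202 units in mutant AML, against 77036 to 121903 units in wild-type AML. These sums did not overlap, and were higher in the mutant, as were the arrays of Cd81, Cd82 and Tspan5. Among the single markers, Camp, Elane, Ltf, Mpo and Prtn3 were also higher without overlap, while Ctsg, Lcn2 and Ngp overlapped between the genotypes. The part of these markers in the tetraspanin values was not tested.

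The effect shared by both leukaemias, the mean of the 2 differences, again passed for 0 of 18 members (0.471% of all genes). At an unadjusted p under 0.05 it held 2 members (11.1%, where 13.7% of all genes lay). The smallest p belonged to Tspan8 (0.69 ± 0.24, adjusted p = 0.239), followed by Cd9 (0.99 ± 0.35, adjusted p = 0.246). Tspan4 stood at -0.38 ± 0.17 (adjusted p = 0.367) and Tspan5 at -0.22 ± 0.13 (adjusted p = 0.494). Beside Tspan5 and Tspan8, the smallest p for a difference of the Msi2 effect between the leukaemias belonged to Cd81 (-0.41 ± 0.22, adjusted p = 0.609) and Tspan4 (0.62 ± 0.35, adjusted p = 0.625).

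**Figure D3:**
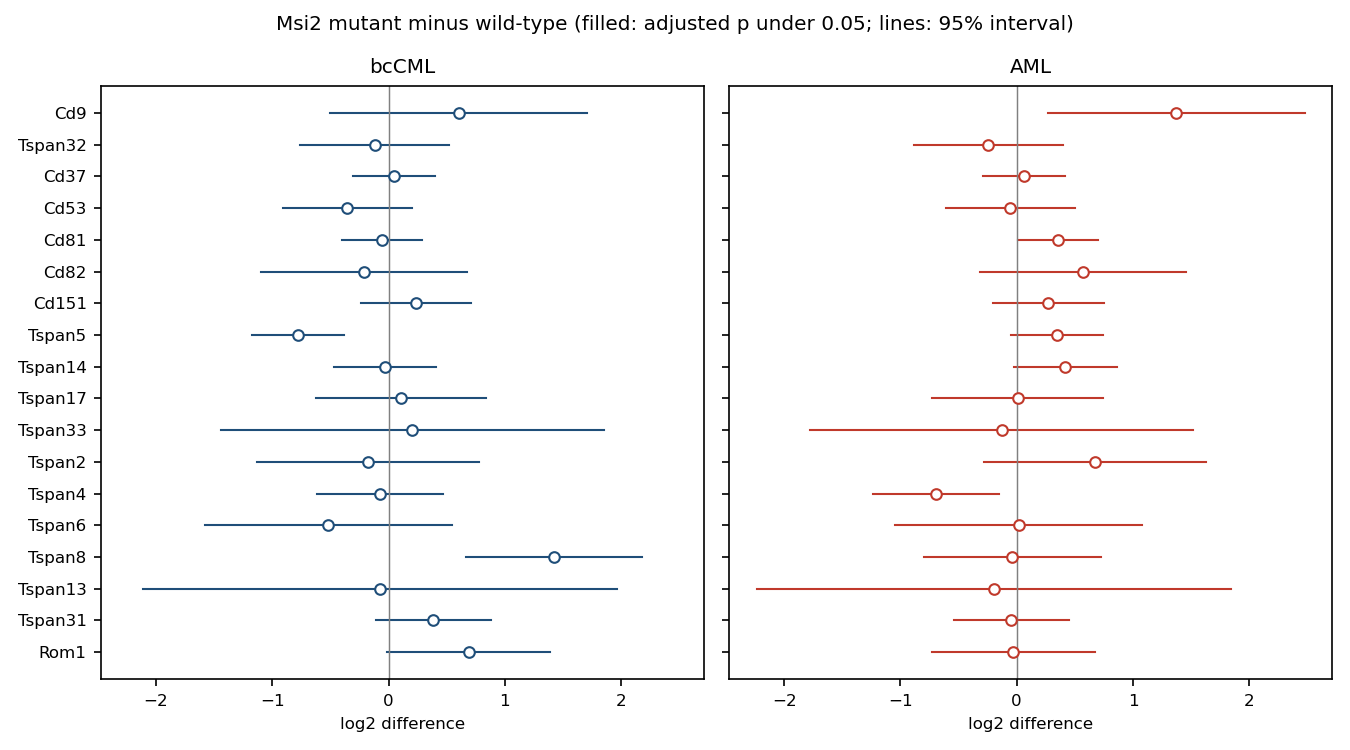
Msi2 mutant minus wild-type log2 difference of each tested tetraspanin in bcCML (left) and AML (right), as points with 95% intervals from limma. A filled point would mark an adjusted p under 0.05, and none is filled. In bcCML the intervals of Tspan8 and Tspan5 leave 0 out on opposite sides, and in AML those of Cd9, Cd81 and Tspan4 do.

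Between the leukaemias the family differed widely. In wild-type cells 11 of 18 members (61.1%) passed the threshold, 7 higher and 4 lower in bcCML than in AML, where 36.9% of all genes passed (17.7% higher and 19.3% lower). In Msi2 mutant cells 12 (66.7%) passed, 6 higher and 6 lower, where 45.1% of all genes passed (23.2% higher and 21.9% lower). Arrays of both leukaemias did not overlap for 14 members in mutant cells (77.8%, where 55.5% of all genes showed it) and for 13 in wild-type cells (72.2%, where 52.4% of all genes showed it). The same direction was called in both genotypes for 10 members (30.7% of all genes). Cd151, Rom1, Tspan4, Tspan8, Tspan13 and Tspan33 were higher in bcCML, and Cd37, Cd82, Tspan5 and Tspan17 were lower. Among the 14 members above the filter in both leukaemias, 9 passed in the mutant (64.3%, where 41.7% of such genes passed) and 7 in the wild-type (50%, where 33% passed). In both genotypes 7 passed in the same direction (50%, where 26.9% of such genes did). Both comparisons use arrays that also enter the Msi2 comparisons.

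Tspan33, a TspanC8 member known from erythroid progenitors, had 559.7, 172 and 381 units in mutant bcCML, against 6.43, 6.38 and 5.54 units in mutant AML. The wild-type cells had 742, 68.6 and 471 units in bcCML, against 7.14, 5.91 and 7.05 units in AML. All AML arrays were below 16 units, so bcCML was at least 20.7-fold higher in the mutant (adjusted p = 0.000146) and at least 18.0-fold higher in the wild-type (adjusted p = 0.00029). Such a bound sets the mean log2 of the brighter group against the filter level. Its values spread within bcCML, and array 2 was the lowest of both genotypes. The summed markers of red cells and of platelets were also higher in bcCML, with exceptions among the single markers. So were the summed mast cell and basophil markers. In mutant cells these were 17162 to 23795 units in bcCML and 1675 to 4500 units in AML. In wild-type cells these were 19902 to 26841 units in bcCML and 1565 to 5959 units in AML. Most of the bcCML sums was Gata2, and Cpa3, Hdc and Mcpt8 overlapped between the leukaemias in both genotypes. The erythroid marker Hba-a1 was at the floor on every array. Of the 7 erythroid markers on the array, 6 were counted in each bcCML group and 1 in each AML group. Their summed levels were 11718 to 19337 units in mutant bcCML and 3475 to 4994 units in mutant AML, and 10600 to 22368 units in wild-type bcCML and 2790 to 3827 units in wild-type AML. Most of the AML sums was Tfrc, with 4952, 3425 and 3785 units in mutant AML and 2741, 3786 and 3053 units in wild-type AML. Gata1, the erythroid and megakaryocytic transcription factor, had 1907, 1392 and 1061 units in mutant bcCML and 1445, 849.6 and 1182 units in wild-type bcCML, and no AML array passed 9.44 units. In wild-type bcCML, Gata1, Car1, Klf1 and Epor were lowest on array 2, as Tspan33 was, and Slc4a1 and Tfrc on array 3. In mutant bcCML, Gata1, Car1, Klf1, Epor and Tfrc were lowest on array 3, Slc4a1 on array 1 and Tspan33 on array 2. Slc4a1 was highest there on array 3. All 7 megakaryocyte and platelet markers were counted in both bcCML groups. Their summed levels were 3972 to 11722 units in mutant bcCML and 262 to 976 units in mutant AML, and 3956 to 8668 units in wild-type bcCML and 57.5 to 174 units in wild-type AML. Vwf was not higher in bcCML, with 59.1, 62.7 and 76.7 units in wild-type bcCML, against 97.9, 15.1 and 140.3 units in wild-type AML. In mutant cells Vwf had 137.3, 84.1 and 406.9 units in bcCML, against 49.8, 925.7 and 203.5 units in AML. Most of the 976 units in mutant AML was thus Vwf. Gp1bb overlapped between the leukaemias in mutant cells. The 5 markers Pf4, Gp5, Gp9, Gp1bb and Itga2b were lowest on array 2 in both genotypes, as Tspan33 was. The other markers, Ppbp and Vwf, were lowest on array 2 in mutant bcCML but on array 1 in wild-type bcCML. Pf4 had 8669.6, 3239.8 and 5545 units in mutant bcCML and 5558, 2929.8 and 6666 units in wild-type bcCML. The part of erythroid, megakaryocytic, mast and basophil cells in the level of Tspan33 was not tested.

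**Figure D4:**
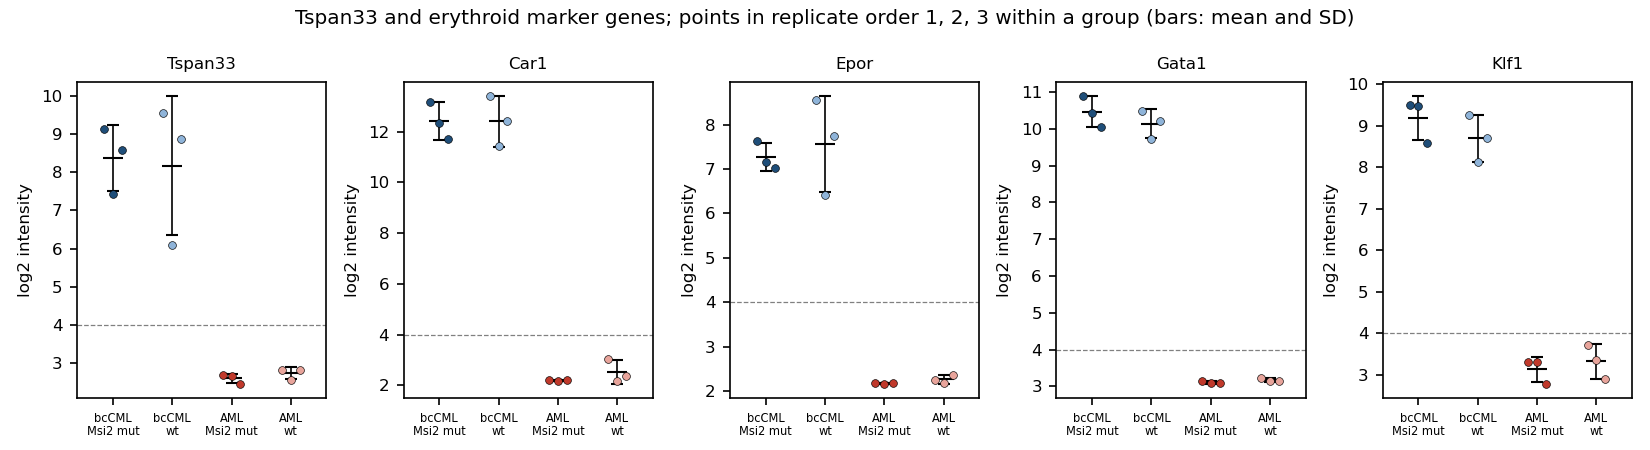
Intensity on a log2 axis of Tspan33 beside the erythroid genes Gata1, Klf1, Epor and Car1 on each array, with groups in the order Msi2 mutant bcCML, wild-type bcCML, Msi2 mutant AML and wild-type AML and points in the order of replicates 1 to 3. The erythroid markers Slc4a1, Tfrc and Hba-a1 are not shown. Wild-type bcCML array 2 is the lowest of its group for all 5 genes, in mutant bcCML Tspan33 is lowest on array 2 and the other 4 genes on array 3, and Tspan33, Gata1, Klf1, Epor and Car1 are below 16 units on every AML array.

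Tspan13 showed a similar gap. It had 1962, 1929 and 1565 units in mutant bcCML, against 20.0, 46.2 and 60.2 units in mutant AML, a 47.4-fold difference (log2 5.57 ± 0.92, adjusted p = 0.000731). In wild-type cells it had 2255, 2178 and 1402 units in bcCML, against 14.1, 281 and 21.1 units in AML, a 43.5-fold difference (log2 5.44 ± 0.92, adjusted p = 0.00112). All bcCML arrays lay above all AML arrays, and wild-type AML array 2 stood apart from its group. The second probe set had 25.5, 286 and 20.0 units on the same 3 arrays. That array also had 2951 units of Cd74, an antigen presentation gene, against 257 and 234 units on the other 2 wild-type AML arrays. The summed level of 6 dendritic cell markers was 3823 units there, against 1229 and 1193 units, and most of it was Cd74. Of the other markers, H2-Ab1 and Itgax were also highest there. Flt3 was lowest there, at 149 units against 642 and 674 units, and Siglech and Xcr1 were below 16 units. The part of these markers in the Tspan13 level was not tested. Without wild-type AML array 2 the wild-type log2 difference of Tspan13 was 6.78.

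The start regions of Tspan33 and Tspan13 are given as the members with the largest gap between the leukaemias, taken from RefSeq in the same way, with CG dinucleotides in capitals. Tspan33 lies at chr6:29693964-29694263 on the plus strand and Tspan13 at chr12:36042429-36042728 on the minus strand, both in GRCm38.p6.
Tspan33: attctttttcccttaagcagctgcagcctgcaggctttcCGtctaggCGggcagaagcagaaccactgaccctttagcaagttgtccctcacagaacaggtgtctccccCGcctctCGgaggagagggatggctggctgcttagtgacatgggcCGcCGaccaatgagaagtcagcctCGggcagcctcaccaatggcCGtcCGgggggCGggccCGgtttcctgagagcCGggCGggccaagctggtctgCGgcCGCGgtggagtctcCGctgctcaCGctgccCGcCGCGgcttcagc
Tspan13: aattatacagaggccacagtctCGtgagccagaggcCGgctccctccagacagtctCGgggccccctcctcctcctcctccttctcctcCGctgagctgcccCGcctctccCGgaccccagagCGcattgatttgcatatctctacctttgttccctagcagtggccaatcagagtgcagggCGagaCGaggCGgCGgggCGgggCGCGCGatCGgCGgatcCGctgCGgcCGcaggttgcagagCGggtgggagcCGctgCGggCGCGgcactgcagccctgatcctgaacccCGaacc
The Tspan33 window held 21 CG dinucleotides at 65% G and C, and the Tspan13 window held 26 at 67.3%. The motifs searched above were not found on either strand of these windows.

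Tspan4 had 468, 549.7 and 567 units in mutant bcCML, against 88.9, 93.0 and 130.3 units in mutant AML (log2 2.36 ± 0.24, adjusted p = 3.39e-05). Wild-type bcCML arrays had 454, 638 and 587 units, against 228, 163 and 123 units in wild-type AML (1.74 ± 0.24, adjusted p = 0.000346). The groups did not overlap in either genotype. Tspan8, with the arrays given above, was higher in bcCML by 2.71 ± 0.34 in mutant cells (adjusted p = 0.000129) and by 1.25 ± 0.34 in wild-type cells (adjusted p = 0.016) on the log2 scale. Its wild-type call was lost without wild-type AML array 1 (adjusted p = 0.0625), wild-type bcCML array 1 (0.0611) or wild-type bcCML array 3 (0.0523). In wild-type cells its probe sets 1420018_s_at, 1420019_at and 1424649_a_at were also higher, by 2.01, 2.64 and 5.14 on the log2 scale. Their adjusted p over all probe sets were 0.0175, 0.00232 and 1.53e-05. The last of them was close to the floor on most AML arrays, so its size is only partly measured. The probe set 1455709_at was not called in either genotype (0.76 ± 0.37 in wild-type cells, adjusted p = 0.147). Rom1 was below 16 units on all AML arrays, at 5.42 ± 1.30 units in mutant and 5.44 ± 0.30 units in wild-type AML. It was at least 2.31-fold higher in mutant bcCML (adjusted p = 6.02e-05) and at least 1.43-fold higher in wild-type bcCML (adjusted p = 0.000581). Cd151 was higher in bcCML by 0.90 ± 0.21 in mutant cells (adjusted p = 0.00641) and 0.94 ± 0.21 in wild-type cells (adjusted p = 0.00638). Tspan6 had 29.0, 8.28 and 9.29 units in mutant bcCML and 32.7, 10.5 and 19.1 units in wild-type bcCML, while no AML array passed 5.88 units. In wild-type cells it was at least 1.17-fold higher in bcCML (adjusted p = 0.0186), a call lost without wild-type bcCML array 1 (adjusted p = 0.0692) or 3 (0.0517).

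Of the 4 tested TspanC8 genes, 3 were lower in bcCML in mutant cells (21.9% of all genes) and 2 in wild-type cells (19.3% of all genes), and Tspan33 was higher in both. Tspan17 and Tspan33 had passed the filter through 1 leukaemia alone. Tspan5 was lower in bcCML by a log2 difference of -1.95 ± 0.18 in mutant cells (adjusted p = 1.36e-05) and -0.82 ± 0.18 in wild-type cells (adjusted p = 0.00488). Tspan17 had 12.8, 15.1 and 12.5 units in mutant bcCML, against 27.6, 57.2 and 24.5 units in mutant AML. In wild-type cells it had 12.9, 12.1 and 12.4 units in bcCML, against 21.9, 44.6 and 39.1 units in AML. It was thus at least 2.11-fold lower in mutant bcCML (adjusted p = 0.00807) and at least 2.10-fold lower in wild-type bcCML (adjusted p = 0.00686). Tspan14 fell in mutant bcCML by 0.60 ± 0.20 on the log2 scale (adjusted p = 0.0312), and was -0.15 ± 0.20 in wild-type cells (adjusted p = 0.586). The difference between both was not called (adjusted p = 0.658), and the mutant call was lost without mutant AML array 2 (adjusted p = 0.113) or 3 (0.0778), and without mutant bcCML array 1 (0.0538), 2 (0.0912) or 3 (0.0702). Adam10, the protease that this group carries, averaged 5868 ± 1279 units in mutant bcCML and 5534 ± 1007 units in mutant AML (SD, n = 3 each), and was not called.

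Of the 7 leukocyte tetraspanins, 3 were lower in bcCML in mutant cells (21.9% of all genes) and 2 in wild-type cells (19.3% of all genes), and Cd151 was higher in both. Cd82 had 100.3, 288 and 256 units in mutant bcCML, against 744, 1502 and 656 units in mutant AML (log2 -2.21 ± 0.40, adjusted p = 0.00125). In wild-type cells it had 249.8, 219 and 210.1 units in bcCML, against 616, 602 and 604 units in AML (-1.43 ± 0.40, adjusted p = 0.0172). All bcCML arrays lay below all AML arrays, and the wild-type call was lost without wild-type bcCML array 3 (adjusted p = 0.0531). Cd37 averaged 2048 ± 102 units in mutant bcCML and 3966 ± 857 units in mutant AML (-0.93 ± 0.16, adjusted p = 0.000869). In wild-type cells it averaged 1985 ± 168 units in bcCML and 3748 ± 192 units in AML (-0.92 ± 0.16, adjusted p = 0.00127). Cd53 was lower in mutant bcCML (-0.99 ± 0.25, adjusted p = 0.00869), while in wild-type cells it stood at -0.69 ± 0.25 and missed the threshold (adjusted p = 0.0523). The difference between the genotypes was not called for Cd53 (adjusted p = 0.831). Cd81, Cd9 and Tspan32, with Tspan2 and Tspan31, were called in neither genotype. A second Tspan2 probe set, 1432417_a_at, was lower in mutant bcCML than in mutant AML without overlap. Its log2 difference was -1.54 ± 0.48 (limma, adjusted p = 0.0249 over all probe sets). In wild-type cells it was not called (-0.75 ± 0.48, adjusted p = 0.262). The summed levels of neutrophil and of monocyte markers were also lower in bcCML in both genotypes, with exceptions among the markers in each. Fcgr1 had 16.3, 54.2 and 17.9 units in wild-type bcCML, against 4.68, 9.04 and 5.11 units in wild-type AML. Mpo and Ctsg overlapped between the wild-type groups. In mutant cells Adgre1, Ccr2, Cx3cr1 and Fcgr1 overlapped between the leukaemias, with Fcgr1 below 16 units on every mutant array. The summed monocyte markers were 414 to 993 units in mutant bcCML and 8915 to 33849 units in mutant AML, and 672 to 1023 units in wild-type bcCML and 16680 to 28151 units in wild-type AML. The summed neutrophil markers were 3173 to 14888 units in mutant bcCML and 149800.1 to 179202 units in mutant AML, against 10473 to 34838 units in wild-type bcCML and 77036 to 121903 units in wild-type AML. Csf1r was at most 5.14 units on any bcCML array, close to the floor. The part of these cells in the levels of Cd37, Cd53 and Cd82 was not tested.

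**Figure D5:**
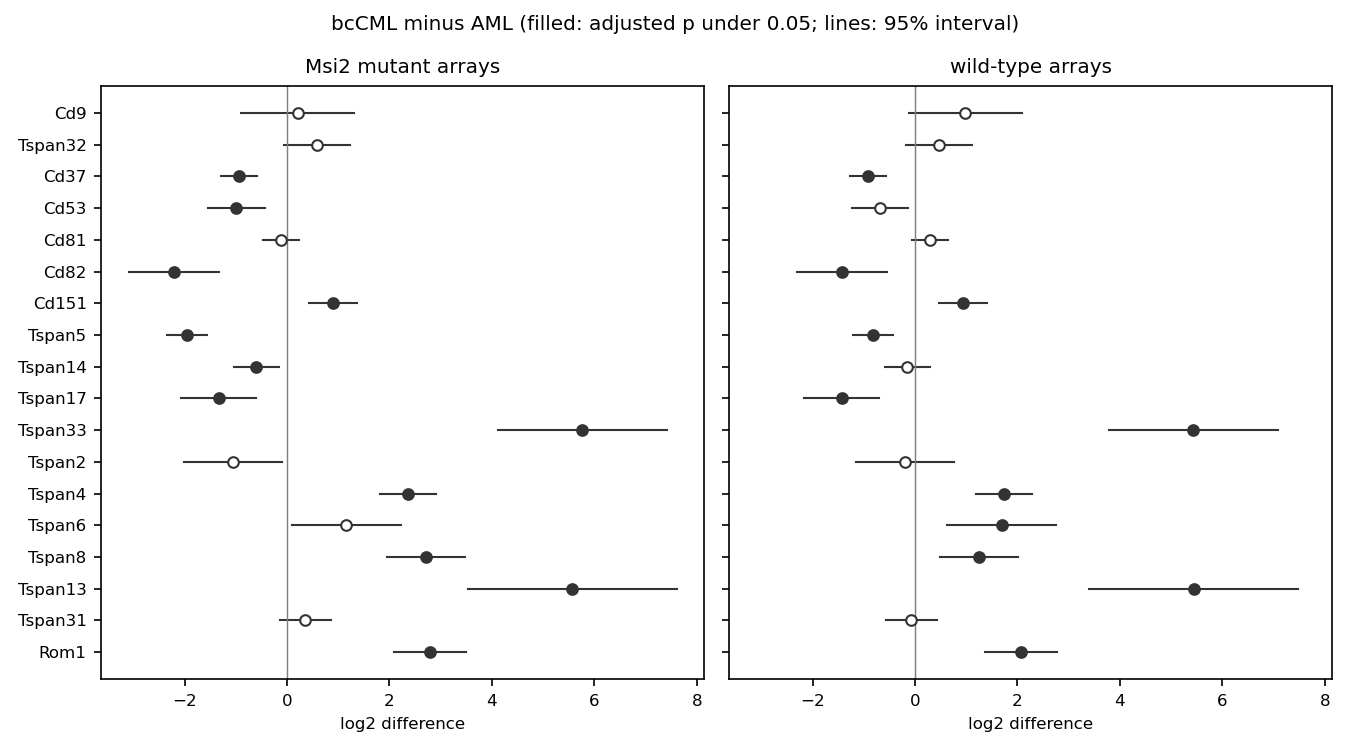
bcCML minus AML log2 difference of each tested tetraspanin in Msi2 mutant cells (left) and wild-type cells (right), as points with 95% intervals from limma, filled where the adjusted p is under 0.05. Tspan33 and Tspan13 lie above 5 in both panels, Cd82, Tspan17, Tspan5 and Cd37 lie below 0 and are filled in both. Values of Rom1, Tspan6 and Tspan33 (AML) and Tspan17 (bcCML) rest on arrays below 16 units. Some bcCML arrays of Tspan6, wild-type bcCML array 1 of Rom1 and wild-type AML array 1 of Tspan13 are also below 16 units.

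The proteins that tetraspanins gather were followed in a list of 42 integrins, proteases, immunoglobulin proteins, receptors and palmitoyltransferases, of which 33 were tested. No partner passed the threshold in limma's Msi2 comparison in either leukaemia (0 of 33), and 6 in AML (18.2%, where 14.2% of all genes lay) and 3 in bcCML (9.09%, where 8.32% of all genes lay) had an unadjusted p under 0.05. These shares were near those of all genes. In AML the smallest p belonged to Ptgfrn, an EWI-type protein bound by Cd9 and Cd81, which had 5.33, 30.5 and 5.80 units in the mutant, against 48.9, 48.4 and 26.2 units in the wild-type (adjusted p = 0.117). The groups overlapped. Its relative Igsf8 had 4.79, 18.6 and 18.8 units in mutant AML, against 53.7, 51.0 and 21.9 units in wild-type AML, without overlap (adjusted p = 0.197). Both had a mutant mean log2 below the filter level, so no size is given. Itgam, the alpha chain of the myeloid integrin Mac-1, stood at 67.4 ± 18.9 units in mutant and 41.5 ± 7.39 units in wild-type AML (0.68 ± 0.20, adjusted p = 0.151), and the lipid kinase Pi4k2a at 99.4 ± 49.4 units in mutant and 184 ± 28.2 units in wild-type AML (-1.03 ± 0.34, adjusted p = 0.190). In bcCML the smallest p belonged to Zdhhc20, a palmitoyltransferase, at 101 ± 22.5 units in the mutant and 163 ± 31.5 units in the wild-type (-0.70 ± 0.24, adjusted p = 0.492).

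Between the leukaemias 21 of the 33 partners (63.6%) passed in mutant cells, 9 higher and 12 lower in bcCML (45.1% of all genes). In wild-type cells 15 (45.5%) passed, 6 higher and 9 lower (36.9% of all genes). These counts hold 6 partners that passed the filter through 1 leukaemia alone (Itga2b, Cd36 and Epcam through bcCML, Itgam, Clec7a and Ptgfrn through AML), whose difference was in part a condition of their being tested. Of the 27 above the filter in both, 17 passed in mutant cells (63%, where 41.7% of such genes passed), 7 higher and 10 lower, and 10 in wild-type cells (37%, where 33% passed), 4 higher and 6 lower. Itga2b, the platelet integrin alpha chain, averaged 855 ± 380 units in mutant bcCML and 5.70 ± 2.08 units in mutant AML, at least 49.6-fold higher. Its wild-type mean was 952 ± 192 units in bcCML and 5.99 ± 2.31 units in AML, at least 58.6-fold higher. Clec7a, a fungal sugar receptor that Cd37 binds, was below 16 units on all bcCML arrays, against 574 ± 306 units in mutant AML and 510.5 ± 285 units in wild-type AML. It was at least 32.2-fold lower in mutant bcCML and at least 28.6-fold lower in wild-type bcCML. Notch1, a receptor cut by Adam10, averaged 149 ± 37.7 units in mutant bcCML and 1389 ± 377 units in mutant AML (-3.22 on the log2 scale), and 143 ± 95 units in wild-type bcCML and 1537 ± 286 units in wild-type AML (-3.61).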

How the data were processed

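The authors deposited 1 linear intensity for each probe set and array. The submitters' processing notes name GCRMA, whose version is not given in the sources used here. This method corrects for background by probe sequence, which presses dim probe sets onto a floor, so changes of dim genes are only partly measured. All 12 columns were used. Of 45037 probe sets, 34945 were paired with 1 symbol in GEO's platform annotation, 932 with several and 9160 with none in the table used. Such symbols can be old.

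Log2 was taken without a pseudocount, and probe sets above log2 of 4 on at least 3 arrays were kept. Group means were fitted over all 12 arrays with limma 3.58.1 in R 4.3.3 (8 residual and 2.19 prior degrees of freedom), with Benjamini-Hochberg adjustment over 10817 genes, two-sided. The fit was tested on simulated data. Members, role groups, marker and partner lists and tests were chosen with earlier results of these data known. Array values are given for the 4 members with the smallest p in each Msi2 comparison, and for the 6 with the largest difference past the threshold between the leukaemias. Those of Cd9 in bcCML and Cd82 in AML were added after their values were seen, because their groups did not overlap.

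As a check of pairing, arrays with the same number in both genotypes deviated together from their group means in bcCML (correlations of 0.396, 0.364 and 0.278) and not in AML (-0.06, -0.12 and -0.03). This pairing comes from the data, not the labels. Alternatives changed the filter, pseudocount, normalisation, probe set choice, arrays in the fit, variance model and replicate block, and left out each array.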

Additional observations from a re-analysis of the deposited data

Results flagged for a closer look

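Tspan5 was lower on every Msi2 mutant array than on any wild-type array in bcCML, and higher on every mutant array than on any wild-type array in AML. The Msi2 effect in bcCML minus that in AML was -1.13 ± 0.25 on the log2 scale, and the test of that difference did not pass (limma, adjusted p = 0.160). Over the alternatives it ran from -1.44 to -0.96, with adjusted p between 0.115 and 0.327. The other probe set of Tspan5 overlapped between the AML groups (log2 0.40 ± 0.41). Groups of 3 arrays are too small to mark a single array as standing apart by a test.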

How the results depend on the processing

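No tetraspanin passed the threshold in any Msi2 comparison under any alternative run, including each array left out. Between the leukaemias the count of members called ran from 11 to 14 in mutant cells and from 8 to 12 in wild-type cells, and 11 of the 12 mutant calls and 8 of the 11 wild-type calls held in all alternatives. The exceptions were Tspan14 in the mutant, also lost when only the arrays compared were fitted (adjusted p = 0.0782), and Tspan8, Cd82 and Tspan6 in the wild-type. Tspan6 was also lost with a pseudocount of 16 (log2 0.71). Cd53 was gained in the wild-type under several settings (adjusted p from 0.021 to 0.0477), and Tspan2 and Tspan6 in the mutant under some. With the replicate number as a block the members called were 14 in mutant and 12 in wild-type cells. With the replicate block within each leukaemia, 0 members were called in bcCML and AML (Tspan5 in bcCML, adjusted p = 0.248; Tspan8 in bcCML, adjusted p = 0.213), so the pairing changed no Msi2 call. Restricting the fit to the arrays compared does not apply to the shared effect or to the difference between effects, and the block within each leukaemia does not apply between leukaemias. Values near the floor of about 4.5 units limit what can be measured for Rom1, Tspan6, Tspan17 and Tspan33.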

Other observations

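Within bcCML, some members had their lowest or highest value on the array of the same number in both genotypes. Tspan32 was lowest on array 2 of each genotype, at 1098 units in the mutant (2247 and 1441 on the other arrays) and 1233 units in the wild-type (1914 and 1931). Cd53 was highest on array 2 of each, at 11375 units in the mutant (5577 and 8363) and 13219 units in the wild-type (9437 and 8878). Tspan33 was lowest on the same 2 arrays. Gp1bb, a platelet surface gene, was also lowest there, at 27.9 units in the mutant and 43.5 units in the wild-type, and Gzma, a granzyme, was highest, at 969 units in the mutant and 96.9 units in the wild-type, with at most 8.46 units on the other bcCML arrays. Other members, such as Cd37 and Cd82, had neither their lowest nor their highest value on the same number in both genotypes. With 3 arrays per genotype a gene can easily match in this way. The share of all genes that do was not counted, so no pattern is read from these cases. These shared array numbers were noticed in the data and were not tested.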
